A study of Homo sapiens with 9 samples.

Results

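The data described here are the 3 solvent libraries, of 9 in all, from a study of PANC-1, an established cell line of human pancreatic carcinoma. These libraries were chosen by their labels alone, as the group whose medium held DMSO (0.04%) while the cells were kept under hypoxia for 12 h. The other 6 libraries, 3 with rakicidin A (42 nM) and 3 with BE-43547A1 (41 nM), had the same time under hypoxia and serve only as a comparison. All cells were grown in DMEM with serum, antibiotics and a stabilised glutamine, and total RNA was sequenced. Cells in normal oxygen are not among the samples, so the levels show which genes were on under hypoxia and not what hypoxia changed. PANC-1 is 1 line, and the labels do not state that each library had its own culture, so the spread between them may be technical. The DMSO content of the media with a compound is not known from the labels.

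The pancreas is built from acinar cells, which make digestive enzymes, duct cells, which line the tubes that carry them, and endocrine islet cells, which make hormones. Carcinomas of the pancreas carry duct features to a varying degree and can lose epithelial genes while they gain genes of mesenchymal cells. In low oxygen the prolyl hydroxylases no longer mark the alpha subunits of the hypoxia-inducible factors (HIF) for destruction by VHL, and HIF then switches on genes for glycolysis, oxygen supply and matrix formation.

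Levels are given as CPM, the counts on a feature scaled to a common library total, as mean ± SD over n = 3 libraries unless each library is listed in the order replicate 1, 2 and 3. Long transcripts yield more counts, so a gene is called higher than another only by CPM per kb of exon, while CPM alone says what share of the counts a gene took. A gene is called detected at 1 CPM or more in each library and absent at 0 counts in all of them. The libraries held 28634532, 27696394 and 30596594 counts, and a floor of 3 counts corresponds to 0.105, 0.108 and 0.0981 CPM, which covers counting error only. Of 112171 features in the table, 15090 were detected and 59439 were absent. Among 19263 protein-coding genes, 11321 were detected and 3208 were absent. The median detected protein-coding gene stood at 33.1 CPM and 6.29 CPM per kb, and 71 such genes reached 1000 CPM. Protein-coding genes took 92.5, 92.3 and 92.4% of the counts and processed pseudogenes 2.77, 2.96 and 2.69%. The 100 most abundant features held 15.9 ± 0.413% of the counts.

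The features with the most counts were 2 nuclear noncoding RNAs, followed by genes of the cytoskeleton, of translation and of protein folding. MALAT1, a long RNA of nuclear speckles, had 5626, 5719 and 10212.5 CPM. Its level in replicate 3 lay far above the other libraries. RN7SK, which holds the elongation factor P-TEFb inactive, had 7256, 8161 and 5740 CPM, with replicate 3 the lowest. AKAP12, a scaffold for protein kinase A, took the most counts of any protein-coding gene, at 6123, 6385 and 7215 CPM. VIM, the intermediate filament of mesenchymal cells, followed at 5263, 5054 and 5148 CPM. EIF4G2, a translation initiation factor, stood at 5128 ± 105 CPM, AHNAK, a giant scaffold protein, at 3805 ± 744 CPM and HSPA8, the constitutive cytosolic chaperone, at 3736 ± 275 CPM. ENO1, a glycolytic enzyme, held 2710.2 ± 104 CPM and PSMC4, an ATPase of the proteasome, 2421 ± 130 CPM. Among the 20 highest genes were also TMSB10, UACA, ACTG1, S100A6, KTN1, PKM, DST, RN7SL1, HSP90AB1 and ANLN, between 1788 and 2924 CPM.

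**Figure D1:**
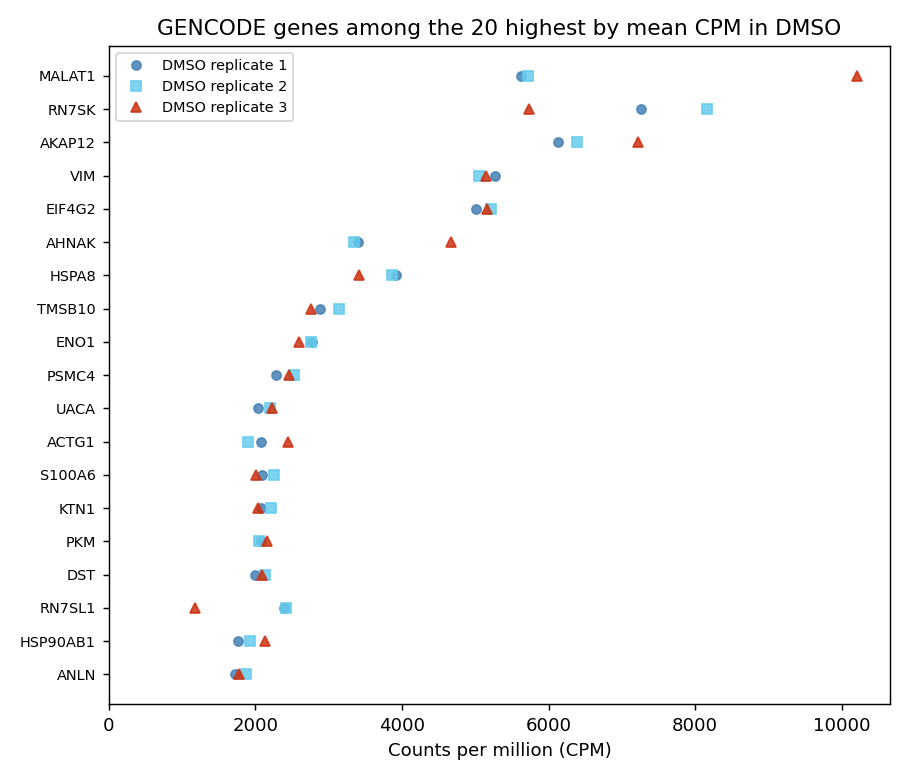
CPM (horizontal axis, linear from 0) of genes among the 20 GENCODE genes with the highest mean, with 1 symbol for each of the 3 DMSO libraries. Most genes lie within a narrow range, while MALAT1 spans 5626 to 10212.5 CPM and replicate 3 of RN7SL1 lies at 1178 CPM, below the others.

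Per kb of exon the order changed in favour of short transcripts. TMSB10, which binds actin monomers, led the protein-coding genes at 5895 CPM per kb, ahead of S100A6, a small calcium-binding protein, at 2184. PSMC4 (1014) and VIM (999) followed. KRT19, the keratin of duct cells, was at 597 CPM per kb. MT-CO1, MT-CO2 and MT-CO3, the core subunits of cytochrome c oxidase, also stood among the 20 highest protein-coding genes, at 850, 710 and 476 CPM per kb. The 13 mitochondrial protein genes together took 0.282, 0.329 and 0.505% of the counts, with the highest share in replicate 3.

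Genes of epithelial and of mesenchymal cells were expressed side by side. Of 41 epithelial genes 26 were detected, 4 of them at 100 CPM or more, with a median of 5.89 CPM over the list. Of 45 mesenchymal genes 31 were detected, 11 at 100 CPM or more, with a median of 5.06 CPM. Per kb the medians were 1.17 and 0.853 CPM, so the epithelial list had the higher median by either measure. The summed levels went the other way, at 4172 ± 116 CPM for the epithelial and 10510 ± 306 CPM for the mesenchymal list. Over all protein-coding genes 58.9% were detected and 12.5% reached 100 CPM, among the genes with a place in the gene order used below.

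On the epithelial side the keratins of simple epithelia led, with KRT19 at 597, KRT18 at 289 and KRT8 at 150 CPM per kb. KRT19 had 1542, 1397 and 1247 CPM, and KRT8 and KRT18, which pair into 1 filament, had 1033 ± 13.8 and 931 ± 37.0 CPM. SPINT2, a membrane inhibitor of serine proteases, followed at 437 ± 24.6 CPM. Genes of cell junctions and adhesion lay lower, with EPCAM at 8.58, OCLN at 7.08 and CDH1 at 1.48 CPM per kb, compared with 84.0 for SPINT2. EPCAM, an adhesion protein of epithelia, had 21.4, 22.7 and 20.7 CPM. OCLN, a strand protein of tight junctions, had 47.9, 43.8 and 52.0 CPM. CDH1, the epithelial cadherin, had 9.46, 9.42 and 8.63 CPM, a low level that all 3 libraries shared. GRHL2, a transcription factor of epithelial identity, was absent. Among the trace members looked up after the values were seen, RAB25 and PRSS8 had 1 count each over the 3 libraries.

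On the mesenchymal side VIM was the highest per kb, at 999 CPM per kb. TPM2 and TPM1, tropomyosins of actin filaments, had 541 ± 28.6 and 925 ± 51.7 CPM, S100A4, linked to cell motility, 147 ± 6.74 CPM, and AXL, a receptor tyrosine kinase, 334 ± 29.95 CPM. CDH2, the neural cadherin, had 119, 125 and 125 CPM. Per kb it exceeded CDH1 by 15.7-, 16.6- and 18.03-fold in the respective libraries. ZEB1, a repressor of epithelial genes, had 112, 120 and 126 CPM, while its paralog ZEB2 had 0.349, 0.505 and 0.817 CPM. TWIST1, another factor of this class, was absent. FN1 (fibronectin), looked up after the values were seen, had 0.943, 0.505 and 0.817 CPM; whether reads lost to overlapping annotation lower this value was not tested. LUM, DCN, PDGFRA and COL1A2, genes of fibroblasts, had 1 or 2 counts each over the 3 libraries.

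**Figure D2:**
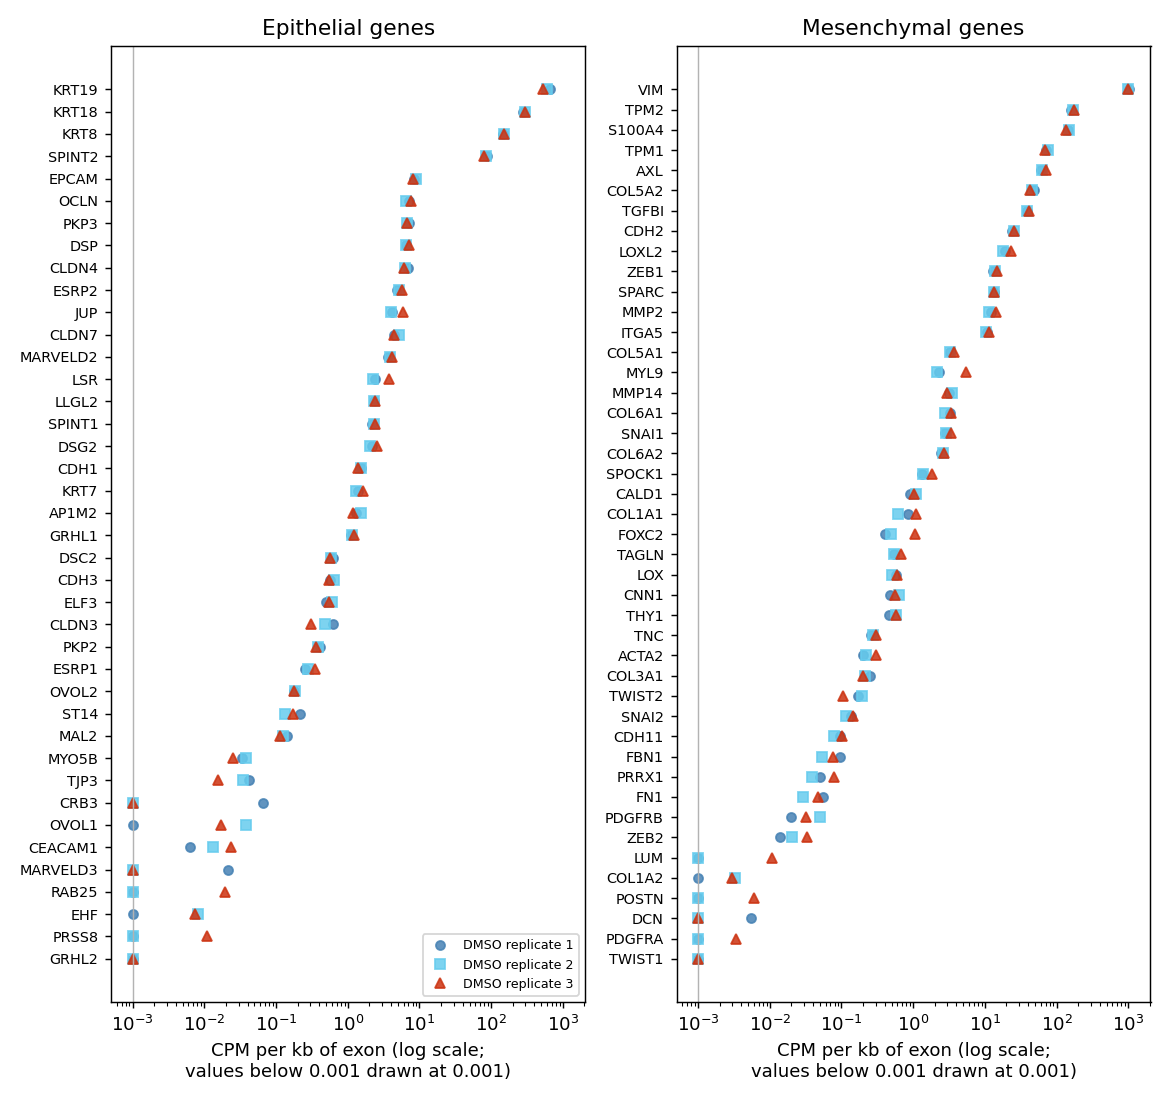
CPM per kb of exon (horizontal log axis) of epithelial genes (left) and mesenchymal genes (right), ordered by mean, with 1 symbol per DMSO library and values below 0.001 drawn at 0.001. KRT19 and VIM head the lists at 597 and 999 CPM per kb, and GRHL2 and TWIST1 have no counts.

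Duct, acinar and endocrine genes were mostly undetected. Of 20 duct genes, 5 were detected, namely KRT19, CLDN4 (30.4 ± 2.26 CPM), KRT7 (5.89 ± 0.645 CPM), MUC1 (2.51 ± 0.751 CPM) and CA2 (1.43 ± 0.247 CPM). KRT19 exceeded KRT7, its companion in duct epithelium, by 420.2 ± 77.6-fold per kb. MUC20 and SCTR, the secretin receptor, were absent, and CFTR, the chloride channel of duct cells named after its values were seen, had 0, 5 and 2 counts. Of 19 acinar genes that were matched, PRSS3, a trypsinogen, was detected at 1.54, 1.19 and 1.11 CPM, and 10 were absent, among them PRSS1, CPA1, CPB1 and CTRB1. Of 24 endocrine genes 4 were detected, namely SYP (8.74 ± 0.532 CPM), MAFA (4.26 ± 0.479 CPM), CHGB (3.56 ± 0.909 CPM) and SCG2 (1.99 ± 0.180 CPM). INS, SST and PPY, which encode islet hormones, were among the 11 that were absent.

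Of 25 transcription factors of pancreatic lineages, 10 were detected. SOX9, a factor of progenitor and duct cells, had 67.5, 60.1 and 96.6 CPM. Replicate 3 was the highest, as it was for ONECUT3, a cut-homeobox factor, with 28.6, 27.9 and 40.3 CPM. FOXA2, a factor of the gut endoderm, had 21.2, 20.3 and 25.2 CPM. FOXF2, a forkhead factor, had 15.5 ± 1.74 CPM, HHEX, a homeobox factor of early endoderm, 7.83 ± 0.349 CPM and TCF7L2, a partner of beta-catenin, 11.6 ± 3.05 CPM. PTF1A and RBPJL, the acinar pair, and NKX2-2, an endocrine factor, were absent. PDX1, which specifies the pancreas and was named after its values were seen, had 3, 6 and 13 counts, and GATA6 had 19, 14 and 24.

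The gene lists of the classical and basal-like carcinoma subtypes were both largely silent. Of 24 classical genes 2 were detected, AGR2, a protein disulfide isomerase of secretory cells, at 77.7, 77.6 and 62.7 CPM, and CDH17, an intestinal cadherin, at 1.60 ± 0.313 CPM. Of 24 basal-like genes 5 were detected, among them SLC2A1, a glucose transporter, at 144 ± 7.79 CPM, CTSV, a lysosomal protease, at 30.4 ± 3.95 CPM and KRT15 at 17.8 ± 1.54 CPM. In each list 8 genes were absent. REG4, ANXA10 and VSIG2 were among the absent classical genes and KRT6C, LY6D and SPRR3 among the absent basal-like genes.

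Markers of other cell types served as a check of the label. None of 9 endothelial and none of 11 hepatocyte markers was detected. Of 15 leukocyte and erythroid markers, ITGAM was detected, at 1.77 ± 0.161 CPM, while CD3D, CD3E, MS4A1, HBB and HBA2 were absent. The fibroblast markers COL1A1 (8.37 ± 2.43 CPM), THY1 (3.18 ± 0.369 CPM) and COL3A1 (1.49 ± 0.172 CPM) were detected, 3 of 13, and FAP and DES were absent. Of 13 neuronal and glial markers, MAP2 (23.1 ± 1.84 CPM), TUBB3 (10.4 ± 2.95 CPM) and SYT1 (9.42 ± 0.433 CPM) were detected. Of 11 intestinal and gastric markers, CDX2 (3.93 ± 0.166 CPM) and CDH17 were detected. Of the duct markers beyond KRT19, CLDN4 lay near the median detected protein-coding gene by CPM, and the others were low or undetected, as given above. All 17 proliferation genes were detected, with TOP2A, a topoisomerase of dividing cells, at 1129 ± 27.2 CPM and MKI67 at 340.3, 402 and 551 CPM.

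Some genes of glucose use stood high, and 1 isoform prevailed at several steps. Of 43 genes for glucose transport and glycolysis 26 were detected, 14 at 100 CPM or more. Over all protein-coding genes 58.9% were detected, which is near the share in this list, and 12.5% reached 100 CPM. The list had a median of 5.60 CPM per kb, undetected members included, compared with 1.26 over all protein-coding genes. ENO1 (514 CPM per kb), GAPDH (379), LDHA (264), LDHB (247), PGK1 (246) and PKM (245) were the highest per kb. HK1 exceeded HK2 by 5.03 ± 0.132-fold per kb, both being hexokinases that trap glucose in the cell. PFKP exceeded PFKL, another phosphofructokinase, by 12.3 ± 0.247-fold. ENO1 exceeded ENO2 by 32.1 ± 4.54-fold and ALDOA exceeded ALDOC by 27.9 ± 3.55-fold. The transporter SLC2A1 exceeded SLC2A3 by 213 ± 17.3-fold. LDHA and LDHB, whose subunits mix in lactate dehydrogenase, had a ratio of 1.01, 0.908 and 1.33, on either side of parity. SLC16A3 and SLC16A1, which carry lactate, also lay close, at a ratio of 1.20 ± 0.0381. FBP1, FBP2 and PGK2 were among the 4 absent genes, and FBP1 and FBP2 reverse the phosphofructokinase step in gluconeogenesis.

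Downstream of pyruvate, all 37 genes of pyruvate entry and the tricarboxylic acid cycle were detected, with a median of 80.6 CPM. FH, the fumarase, had the highest level per kb (87.7), followed by SDHB (70.9), a subunit of succinate dehydrogenase, and DLAT (45.7), of the pyruvate dehydrogenase complex. PDK1, a kinase that shuts this complex, exceeded PDK2 by 10.2 ± 1.29-fold per kb. Of 20 genes of complex IV and its isoform switches 14 were detected. COX4I1 had 171, 172 and 149 CPM while its lung-type and hypoxia-linked isoform COX4I2 was absent. NDUFA4L2, a HIF-induced homolog of the NDUFA4 subunit, had 0.594, 0.722 and 0.882 CPM.

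Biosynthetic genes were broadly on. Of 26 genes of glutamine, asparagine and serine metabolism 23 were detected, led per kb by MTHFD2, a mitochondrial folate enzyme, at 360 ± 30.3 CPM and SLC7A5, an amino acid transporter, at 217 ± 16.4 CPM. Of 32 genes of fatty acid and cholesterol synthesis 30 were detected, with SCD, the fatty acid desaturase, at 447 ± 47.5 CPM and ELOVL5, an elongase, at 329, 330 and 329 CPM. Of 9 pentose phosphate genes 8 were detected, with TKT, a transketolase, at 153 ± 5.46 CPM. Of 14 genes of gluconeogenesis and glycogen storage 10 were detected. The brain-type glycogen phosphorylase PYGB exceeded the liver type PYGL by 3.98 ± 0.219-fold per kb, and G6PC and GYS2, enzymes of liver, were absent.

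HIF target genes were nearly all on. Of 50, 46 were detected and 25 reached 100 CPM, with a median of 105 CPM. Over all protein-coding genes 58.9% were detected and 12.5% reached 100 CPM. Some abundant members, such as ENO1 and LDHA, are glycolytic genes already counted above. While 40 targets had a mean of at least 10 CPM, LOX (3.10), CA12 (4.87), TMEM45A (6.60) and EGLN3 (7.65 CPM) were detected at lower means. The 4 that were not detected were CA9 with 12, 12 and 24 counts, NDUFA4L2, SLC2A3 with 27, 23 and 27 counts and EPO with 1, 1 and 2 counts. Besides the glycolytic enzymes, P4HA1 and PLOD2, which hydroxylate collagen, ranked highest. P4HA1 had 729.7, 673 and 645 CPM and PLOD2 had 1483, 1394 and 1321 CPM. PGK1 had 1478, 1363 and 1236 CPM. For all 3 genes replicate 3 was the lowest, whereas LDHA was highest there, at 1877 CPM against 1582 and 1463.

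The regulators of the response were expressed as well, 19 of 21. HIF1A and EPAS1, the alpha subunits of HIF1 and HIF2, had 92.7 ± 2.88 and 143 ± 9.48 CPM, and per kb their ratio was 0.920 ± 0.0463. Of the prolyl hydroxylases EGLN1, itself a HIF target, had 396 ± 20 CPM and exceeded EGLN3 by 52.5 ± 3.30-fold per kb. CITED2, which competes with HIF for its coactivators, had 131 ± 4.95 CPM and VHL 91.1 ± 2.48 CPM. HIF3A, chosen after the values were seen, had 1 count over the 3 libraries.

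**Figure D3:**
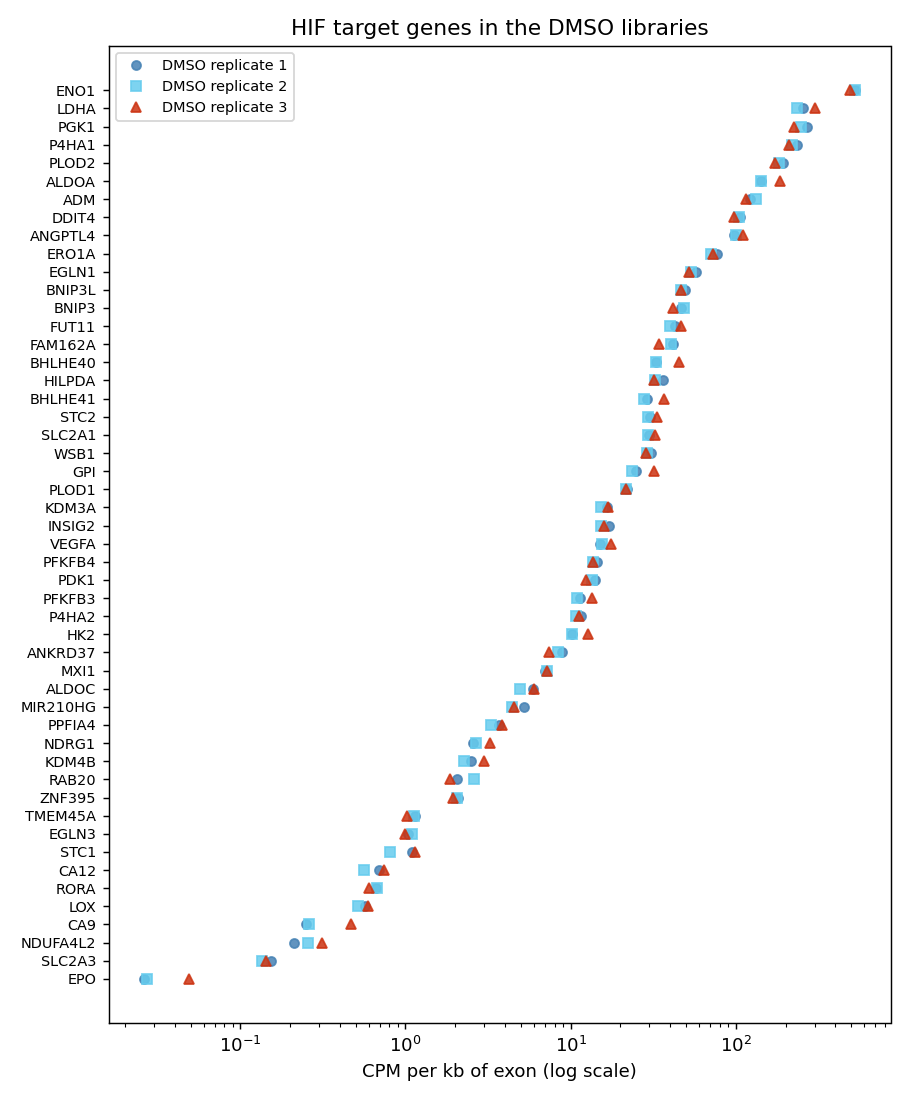
CPM per kb of exon (horizontal log axis) of 50 HIF target genes ordered by mean, with 1 symbol per DMSO library. ENO1 leads at 514 CPM per kb, and CA9, NDUFA4L2, SLC2A3 and EPO, the genes that were not detected, lie at the bottom end between 0.0342 and 0.327.

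Promoters of 3 HIF targets are printed to set abundant genes beside CA9, a target that was not detected. HIF binds the core letters ACGTG or GCGTG, and these are in capitals below wherever they occur on either strand (the reverse reads CACGT or CACGC). Each sequence covers the 250 bases before the RefSeq start in the GRCh38.p14 build, on the gene's strand, from chr11:18394313-18394562 (LDHA, plus strand), chrX:78103998-78104247 (PGK1, plus strand) and chr9:35673678-35673927 (CA9, plus strand).
LDHA: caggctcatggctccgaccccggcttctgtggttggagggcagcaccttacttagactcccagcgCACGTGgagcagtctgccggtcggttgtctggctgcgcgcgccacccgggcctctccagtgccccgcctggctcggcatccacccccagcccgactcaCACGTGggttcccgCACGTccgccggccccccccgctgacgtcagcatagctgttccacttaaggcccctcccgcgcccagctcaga
PGK1: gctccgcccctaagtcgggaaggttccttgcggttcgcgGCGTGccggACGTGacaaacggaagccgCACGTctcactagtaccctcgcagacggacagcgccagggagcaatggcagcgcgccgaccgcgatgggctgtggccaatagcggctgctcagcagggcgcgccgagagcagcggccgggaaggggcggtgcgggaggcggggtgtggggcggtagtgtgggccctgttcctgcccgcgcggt
CA9: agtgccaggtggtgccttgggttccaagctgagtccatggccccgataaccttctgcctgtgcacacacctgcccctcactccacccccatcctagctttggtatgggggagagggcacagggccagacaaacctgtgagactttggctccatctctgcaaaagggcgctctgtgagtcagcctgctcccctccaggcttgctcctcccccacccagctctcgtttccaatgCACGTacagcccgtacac
LDHA held 5 matches, counting both strands of each palindromic CACGTG, PGK1 held 3 and CA9 held 1. Other targets did not share this order. P4HA1 and ALDOA, at 221 and 156 CPM per kb, held 1 match each, and SLC2A1 and PDK1 held 0. LOX and ALDOC, at 0.559 and 5.60 CPM per kb, held 4 and 5. Whether the number of matches went with level was not tested. Of the 50 HIF genes 40 matched a promoter by symbol, and 32 of these (80.0%) held a match, compared with 43.2% of all 35116 promoters of that length. The 40 were taken as 1 promoter per symbol, while the 35116 were not, nor were these limited to expressed genes or matched in base composition. These shares thus do not measure an enrichment. The lists were chosen as known targets, and a match is a description of the letters, not of binding.

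Among receptor tyrosine kinases 22 of 36 were detected. MET, the receptor of hepatocyte growth factor, had 655, 656 and 644 CPM, EGFR 557 ± 36.7 CPM and EPHA2, an ephrin receptor, 258 ± 8.39 CPM. TEK, an endothelial receptor, was absent. Of 10 genes altered in pancreatic carcinoma 8 were detected. SMAD4, the common partner of the TGF-beta SMADs, had 62.7, 57.0 and 62.4 CPM. CDKN2A, which encodes the cell cycle inhibitor p16, had 0, 0 and 1 count, and its neighbour CDKN2B had none. On the far side of CDKN2A, MTAP, an enzyme of the methionine salvage pathway, had 40, 32 and 44 counts. Its mean of 1.33 CPM lay just above the detection threshold. Per kb it stood at 0.0910 CPM, against 6.29 for the median detected protein-coding gene. Loss of the CDKN2A locus is known for PANC-1 as background; DNA was not measured here.

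A stretch of chromosome 19 held an unusual density of abundant genes. It was noticed in the values, so it is a description with no test. When the 15 protein-coding genes in each window of gene order were reduced to their median CPM per kb, the highest of 18883 windows in the genome was centred on PLEKHG2, at 46.8. The highest window outside chromosome 19, centred on HIST1H2BC on chromosome 6, reached 28.2, and the median window 1.49. Of the 20 highest windows 13 were on chromosome 19, and many of these overlap. From SAMD4B to AKT2 lie 27 protein-coding genes, of which 15 (55.6%) reached 100 CPM, compared with 16.7% of the 30 genes before and 6.67% of the 30 after. Per kb the median gene of the stretch stood at 41.8 CPM, against 0.809 before and 0.917 after.

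PSMC4, the highest of the stretch per kb, had 2277, 2530 and 2457 CPM. SUPT5H, a transcription elongation factor, had 1466, 1576 and 1666 CPM. AKT2, a serine/threonine kinase of growth factor signalling, had 1107, 1161 and 1173 CPM. Per kb their means were 1014, 183 and 76.3 CPM, compared with 6.29 for the median detected protein-coding gene. PAF1, the scaffold of a complex on elongating polymerase, had 1138 ± 158 CPM, FBL, the methylase of ribosomal RNA, 1051 ± 117 CPM, TIMM50, of the mitochondrial import channel, 914 ± 23.5 CPM and MED29, of the Mediator, 679 ± 12.4 CPM. Not every gene inside the stretch was on. CLC, LEUTX, LGALS13, LGALS14 and LGALS16, which are neighbours, had 1 to 3 counts over the 3 libraries, whereas DLL3, a Notch ligand, had 84.3, 83.7 and 65.7 CPM. A gain of DNA that includes AKT2 is known for PANC-1 as background; its part in these levels was not tested.

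**Figure D4:**
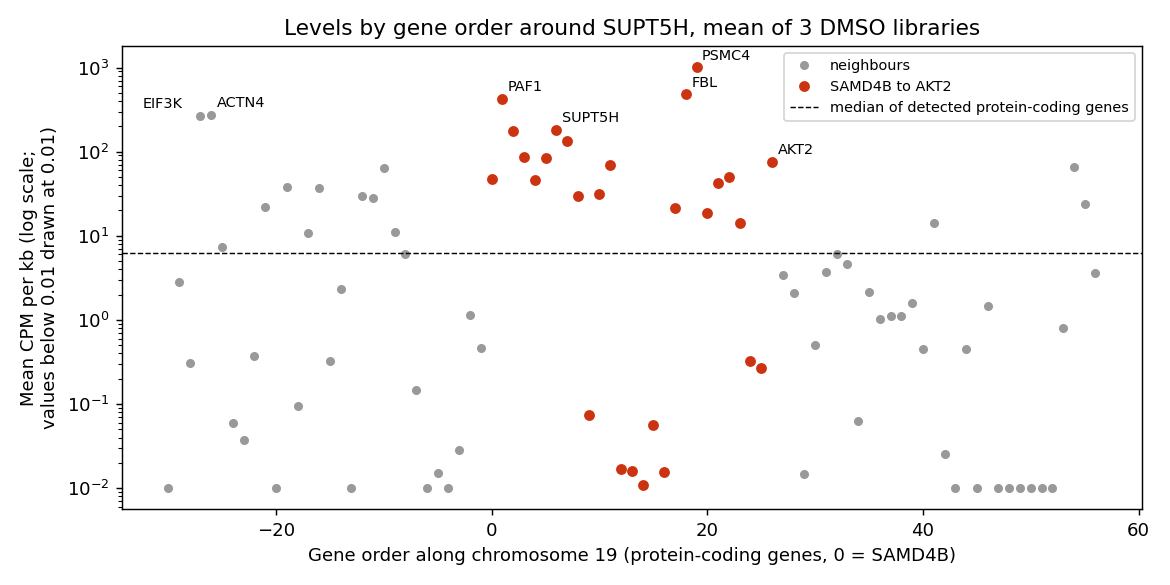
Mean CPM per kb in DMSO (vertical log axis, values below 0.01 drawn at 0.01) of the 27 protein-coding genes from SAMD4B to AKT2 (red) and of 30 neighbours on each side (grey) in gene order on chromosome 19. The dashed line marks the median of detected protein-coding genes, 6.29 CPM per kb, and most red points lie above it while a silent group lies below 0.1.

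Further lists add to the description of the line. Of 39 HOX genes, which encode body-axis position, 20 were detected, compared with 58.9% of all protein-coding genes. HOXB7 (61.2 ± 4.17 CPM), HOXB9 (67.1 ± 5.82 CPM) and HOXC9 (41.8 ± 6.03 CPM) led per kb. HOXA7, HOXB1, HOXD12 and HOXD13 were absent. Of 21 noncoding RNAs 17 were detected, including RMRP (435 ± 155 CPM), the RNA of an RNase complex, H19 (313 ± 52.4 CPM), an imprinted RNA, NORAD (340.4 ± 23.9 CPM), RPPH1 (112 ± 38.0 CPM) and GAS5 (173 ± 15.3 CPM). TERC, the RNA of telomerase, and UCA1 were listed with 0 counts. The annotation at hand places another gene over TERC on the same strand, and whether its reads were set aside as ambiguous was not tested.

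For several abundant proteins more counts fell on a processed pseudogene than on the gene itself, a comparison of counts that takes no account of length, so their levels are uncertain. These pairs were chosen after the values were seen. EEF1A1, a translation elongation factor, had 573 ± 106 CPM and EEF1A1P5 had 1389 ± 189 CPM. NPM1, a nucleolar chaperone, had 731 ± 17.3 CPM against 1243 ± 110 CPM on NPM1P27, and ANXA2 800.0 ± 42.9 CPM against 1213 ± 77.8 CPM on ANXA2P2. RPL39, a ribosomal protein gene, kept 9.61 ± 1.25 CPM while RPL39P3 held 283 ± 34.4 CPM. The reverse held for GAPDH, with 1128 ± 14.0 CPM against 48.4 ± 3.27 CPM on GAPDHP1. Reads that matched several sites made up 20.8 to 22.4% of the DMSO counts and summary entries together, and how they would divide between such copies cannot be told from the table.

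The 3 libraries were close for most genes. Over 7101 protein-coding genes of at least 20 CPM, the median coefficient of variation was 5.92%, against 2.29% from counting alone, and all but the lowest and highest 5% of genes lay between 1.54 and 15.5%. Pearson's r of log2 levels across 15090 features, which are not independent replicates, was 0.997 for replicates 1 and 2 and 0.994 and 0.995 for each with replicate 3. Replicate 3 lay more than 0.5 on the log2 scale above the other libraries for 140 features and below for 14, while replicate 1 did so for 3 and 34 and replicate 2 for 24 and 11. The biological coefficient of variation fitted by edgeR was 9.68% in DMSO and 6.32% without replicate 3, compared with 4.23% in the rakicidin A and 5.99% in the BE-43547A1 libraries.

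Genes with the widest spread were named by rank of their coefficient of variation. RPS16, a ribosomal protein gene inside the chromosome 19 stretch, had 142, 117 and 395 CPM. HNRNPH3, an RNA-binding protein, had 57.6, 51.2 and 130.2 CPM and APEX1, a DNA repair endonuclease, 56.9, 48.7 and 109 CPM. MT-CO1 had 932, 1056 and 1942 CPM. In each of these genes replicate 3 was high and the others lay close to each other. EGR1, an early response factor, was high there too, with 19.3, 19.2 and 38.2 CPM. RPL26 was the exception, with 105, 249 and 195 CPM and replicate 1 the lowest. Among other features, chosen after the values were seen, the MiTranscriptome locus G003293 ranged from 30.8 over 133 to 846 CPM, CTD-2328D6.1 from 12.7 over 41.9 to 251 CPM, and RN7SL2, a 7SL RNA gene, had 2526, 403 and 1261 CPM. MALAT1, MT-CO1, MT-CO3, MT-ND3, G003293 and CTD-2328D6.1 were highest in replicate 3, while for RN7SL2 replicate 1 was high and replicate 2 low; their part in the spread of other genes was not tested. No detection count of a list changed by over 1.5 times when any 1 of the 3 libraries was left out. As detection needs every library, leaving 1 out can only keep or raise a count.

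**Figure D5:**
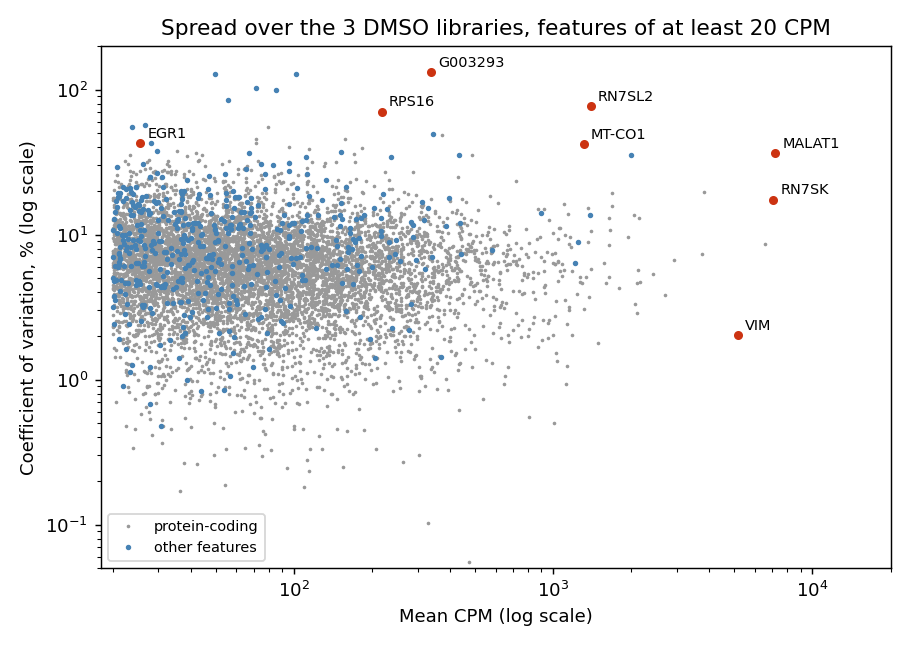
Coefficient of variation in percent (vertical log axis) against mean CPM (horizontal log axis) over the 3 DMSO libraries, for 7101 protein-coding genes (grey) and other features (blue) of at least 20 CPM, with named features in red. Most genes lie near 5.92%, and G003293, RN7SL2, RPS16, MT-CO1, EGR1 and MALAT1 lie well above the bulk at their level.

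The DMSO libraries also served as the control of the compounds, and both comparisons use the same 3 control libraries. Changes are log2 fold changes ± SE scaled by TMM, a scaling that assumes most genes keep their level, with adjusted p from edgeR's quasi-likelihood test over 22353 features. Of these, 64.7% passed for rakicidin A (31.9% higher, 32.7% lower). For BE-43547A1 70.4% passed (35.3% higher, 35.1% lower). Scaled by total counts alone, the calls split into 4477 higher and 11392 lower for rakicidin A and 5951 and 10450 for BE-43547A1. The median of all genes moved from -0.02 to -0.38 for rakicidin A and from -0.00026 to -0.24 for BE-43547A1. Changes below are relative to TMM, and each named gene kept its direction and its call with total counts, except KRT19, which had -0.22 with BE-43547A1 then and passed (adjusted p = 0.00631).

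Lists that describe the baseline differed in how their members moved. In each pair of counts below the first value is the number of genes called higher and the second the number called lower. Of 31 tested epithelial genes the counts were 8 and 11 with rakicidin A (median log2 fold change 0.08) and 12 and 7 with BE-43547A1 (median 0.22). With total counts these became 4 and 17, and 7 and 12. Of 37 mesenchymal genes they were 13 and 13, and 16 and 10 (medians 0.03 and 0.04), and with total counts 9 and 19, and 11 and 15. Of 29 glycolytic genes they were 8 and 14, and 13 and 8, and with total counts 5 and 20, and 10 and 14. Of 49 HIF targets they were 25 and 19, and 19 and 20, and with total counts 18 and 25, and 16 and 26. Which direction held more of the calls in these 4 lists thus changed with the scaling in at least 1 comparison each, and the share of epithelial and mesenchymal genes called in either direction lay near the background share given above.

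Other lists moved mainly 1 way with TMM, and the HOX and proliferation lists did so with total counts too. Of 25 tested HOX genes 2 were higher and 23 lower with each compound (medians -1.56 and -1.28), and with total counts 1 and 23 with rakicidin A, and 2 and 23 with BE-43547A1. HOXB9 was among the genes called higher with TMM. HOXB7, picked by its small p-values in these comparisons, fell from 56.5, 62.5 and 64.5 CPM to 23.7, 23.0 and 21.4 CPM with rakicidin A. These libraries lay below every DMSO library (-1.07 ± 0.07, adjusted p = 8.14e-11). Of 17 proliferation genes 1 was higher and 16 lower with rakicidin A, and 1 and 15 with BE-43547A1 (medians -0.85 and -1.06), and these counts were the same with total counts. UBE2C, a ubiquitin-conjugating enzyme of mitosis named after its values were seen, was the gene called higher. Of 24 tested genes of glutamine, asparagine and serine metabolism the counts were 17 and 1, and 17 and 3 (medians 0.50 and 0.32), and with total counts 12 and 7, and 10 and 5. Of the 13 mitochondrial protein genes 8 were lower with rakicidin A and 6 with BE-43547A1, and 2 in each with DESeq2. These calls rest on single libraries. Without DMSO replicate 3, 5 were lower and 2 higher with rakicidin A, and 3 were lower and 1 higher with BE-43547A1. The count for rakicidin A was also 5 without its replicate 1 or 2, and that for BE-43547A1 was 2 without its replicate 1, 3 without its replicate 3 and 10 without DMSO replicate 1.

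KRT19 fell after rakicidin A, to 831, 842 and 788 CPM from 1542, 1397 and 1247 CPM, a change of -0.41 ± 0.07 (adjusted p = 3.12e-05). After BE-43547A1 it stood at 1280, 1160.4 and 1147 CPM, a change of 0.01 ± 0.07 that did not pass (adjusted p = 0.862). By CPM the rakicidin A libraries lay below all DMSO libraries. Of the BE-43547A1 libraries only replicate 1 reached the DMSO range, and the others lay below it.

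KLF5, a factor of gut epithelia, rose from 2.62, 3.18 and 3.63 CPM to 17.2, 17.5 and 17.97 CPM after rakicidin A (2.84 ± 0.10, adjusted p = 2.53e-14) and to 17.2, 17.1 and 16.3 CPM after BE-43547A1 (2.66 ± 0.10, adjusted p = 5.82e-14). ONECUT3 fell to 5.55, 5.28 and 4.77 CPM (-2.27 ± 0.13, adjusted p = 1.60e-11) and to 8.92, 9.45 and 8.26 CPM (-1.62 ± 0.12, adjusted p = 5.25e-10). CNN1, a calponin of smooth muscle, rose from 1.36, 1.81 and 1.60 CPM to 10.6, 8.69 and 8.89 CPM (2.92 ± 0.13, adjusted p = 3.32e-13) and to 18.4, 17.8 and 17.6 CPM (3.73 ± 0.12, adjusted p = 4.32e-15). For these 3 genes no treated library overlapped the DMSO range. They were picked by their small p-values in these same comparisons, a choice that favours such separation.

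Members of the glycolytic and HIF lists went opposite ways. HK2, the minor hexokinase at baseline, rose from 62.1, 61.7 and 77.5 CPM to 198, 209 and 210.3 CPM (1.97 ± 0.08, adjusted p = 5.09e-14) and to 218, 220.4 and 231 CPM (1.97 ± 0.08, adjusted p = 5.47e-14). ALDOC, the minor aldolase, fell from 17.3, 14.5 and 17.5 CPM to 3.46, 2.84 and 3.01 CPM (-2.05 ± 0.11, adjusted p = 1.42e-11) and to 5.31, 4.65 and 5.07 CPM (-1.47 ± 0.10, adjusted p = 3.64e-10). HILPDA, a lipid droplet protein induced by HIF, fell from 74.9, 66.8 and 66.2 CPM to 19.3, 19.9 and 20.5 CPM (-1.44 ± 0.08, adjusted p = 6.46e-12) and to 23.8, 19.4 and 22.0 CPM (-1.43 ± 0.07, adjusted p = 5.06e-12). The treated libraries of these genes, picked in the same way, also lay outside the DMSO range. Each difference is between groups of 3 libraries.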

How the data were processed

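Per the labels' protocols, RNA from a column kit was read as 76-base pairs on an Illumina NextSeq. TopHat2 and HTSeq, and the builds GRCh37 and hg19, are named in the submitters' processing notes, with no setting for strand. The deposited values are raw counts per annotated feature, which the authors did not normalize. HTSeq's summary entries name no gene and were set aside: 16.4 to 20.8% of all entries over the 9 libraries fell on no feature, 2.65 to 2.94% were ambiguous and 19.1 to 22.4% had several sites. Counts on features came to 26203326 to 45048999 per library.

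CPM values were computed as counts over total counts on features. Exon length is the union of exons in GENCODE v29, matched by Ensembl identifier for 52338 of 57820 GENCODE features, and it overstates the length of genes with many isoforms. That annotation is on GRCh38, so only gene order was taken from it; promoters came from RefSeq on GRCh38.p14. Of 684 list entries 682 were matched. The members and lists were chosen with earlier results of these data known. Named genes were the 20 highest by CPM and by CPM per kb, up to 6 per list by CPM per kb with all absent members and isoform pairs, the 10 protein-coding genes of widest spread at 20 CPM or more, and for comparisons up to 4 genes a list, by the smallest product of their p-values; others are said to be named after their values were seen.

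Comparisons used edgeR 4.0.16 in R 4.3.3 on the counts of all 9 libraries (filterByExpr, TMM, quasi-likelihood test with 1 mean per group), with Benjamini-Hochberg adjusted p below 0.05. Alternatives were other scalings, no filter, DESeq2 1.42.0, a replicate block, other detection thresholds and each library left out. On simulated data for rakicidin A against DMSO (21372 genes), the fit recovered 79.1% of 1.5-fold and 100% of 2-fold changes, with 4.62% false calls. In the measured libraries 64.7% of features passed for rakicidin A, and the split of calls changed with the scaling. Whether the rates from simulated data hold there was not tested. No pair of libraries in a group agreed within counting noise (chi-square per degree of freedom 10.2 to 28.3 in DMSO), so each was counted. Figures were drawn with matplotlib 3.10.9. Some genes that the rule would name are not reported here.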

Additional observations from a re-analysis of the deposited data

How the results depend on the processing

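The number of detected features (15090) ranged from 13046 at 2 CPM to 17493 at 0.5 CPM. Scaling the DMSO libraries by TMM over the 9 libraries lowered the median of the epithelial list from 5.89 to 5.13 CPM and that of the mesenchymal list from 5.06 to 4.41 CPM, a shift that the larger library size gives every gene. The spread between the DMSO libraries was 9.68%, and 6.32 to 11.1% with 1 library left out, lowest without replicate 3. With total counts alone, rakicidin A had 4477 genes called higher and 11392 lower, against 7141 and 7314 with TMM. No pairing by replicate number was seen, as deviations from the group means correlated at -0.0566 to 0.122 between libraries of the same number. Such values cannot show how the cultures were set up. The fit with the replicate block called 14359 and 15670 genes, against 14455 and 15738. Of the list counts, 39 alternatives for calls moved by over 1.5 times and 521 did not, and for detection 9 moved and 165 did not, the 9 all in lists with at most 5 detected genes. DMSO depth limits absence to below 0.0981 to 0.108 CPM per library.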
